A study of Mus musculus with 8 samples.

Results

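The respiratory chain genes of mouse oligodendrocyte progenitors were described in cultures that had lost most Ehmt1 and Ehmt2 mRNA and in matched controls. Members were chosen by gene symbol alone, as every row starting with mt- and every row with the symbol pattern of a nuclear subunit of complex I (Nduf), II (Sdh), III (Uqcr), IV (Cox4 to Cox8) or V (Atp5). This gave 108 of the 24155 genes in the deposited table, of which 17 were encoded in mitochondrial DNA and 91 in the nucleus. The mitochondrial members were 13 mRNAs, 2 ribosomal RNAs and 2 transfer RNAs. The nuclear members were 81 subunit genes and 10 pseudogenes of such genes. The subunit genes comprised 36 of complex I, 4 of complex II, 8 of complex III, 16 of complex IV and 17 of complex V. The pattern leaves out a few subunits with other symbols, among them Cyc1 of complex III.

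Polyadenylated RNA was sequenced from 8 libraries, 4 of the cKO group and 4 of the control group, numbered 1, 3, 4 and 6, and the labels name for each number a batch with 1 library in each group. All cells were Ehmt1fl/fl;Ehmt2fl/fl progenitors from male and female pups at postnatal day 7, purified by immunopanning (capture on antibody-coated dishes) and kept in SATO medium with 2 mitogens, bFGF at 20 ng/mL and PDGF-AA at 10 ng/mL. cKO cultures received Ad-RFP-iCre, an adenovirus that carries a red fluorescent protein and the Cre recombinase, and control cultures received Ad-RFP, the same virus type without Cre. The multiplicity of infection was 10, the virus was left on the cells for 6 hours, and cells were harvested 72 hours after infection. Ehmt1 and Ehmt2 encode the histone H3 lysine 9 methyltransferases GLP and G9a. Both groups therefore share the floxed alleles, the virus and the fluorescent protein, and the cKO cultures differ from them by Cre itself as well as by the recombined alleles. Whether each batch came from separate animals is not stated, so p-values measure the spread between these pairs of cultures, which may be partly technical.

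The libraries held 43542742 to 65374488 counts each. Ehmt1 had 36.1, 41.9, 42.4 and 45.7 CPM (counts scaled by library size) in cKO libraries 1, 3, 4 and 6, against 88.8, 100.2, 93.1 and 99.998 CPM in control libraries. Ehmt2 had 51.7, 55.5, 64.5 and 62.05 CPM in cKO libraries, against 154, 178, 196 and 181 CPM in control libraries. Neither gene's groups overlapped, and edgeR's quasi-likelihood test gave log2 fold changes of -1.20 ± 0.04 (SE, adjusted p = 7.4e-08) for Ehmt1 and -1.60 ± 0.03 (adjusted p = 2.2e-09) for Ehmt2. Counts from exons outside the floxed segments are included in these values. Markers of progenitors summed to 7932 to 11892 CPM in cKO and 8626 to 13213 CPM in control libraries. Of the 8 tested 1 was higher and 2 were lower at an adjusted p under 0.05, against 10.0% and 10.4% of all genes tested. Markers of microglia, endothelial or mural cells and fibroblasts summed to at most 1.44, 3.76 and 1.23 CPM in cKO and at most 0.902, 5.60 and 1.47 CPM in control libraries. These 3 sums cover only the listed markers found in the deposited data, 2 of 7, 4 of 7 and 4 of 5.

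The respiratory chain sits in the inner mitochondrial membrane. Complexes I and II pass electrons to ubiquinone, complex III hands them to cytochrome c, and complex IV gives them to oxygen, while complexes I, III and IV pump protons that drive ATP synthesis by complex V. The mitochondrial genome supplies core subunits of every complex but complex II. It is read as long transcripts from both strands, which are cut into separate RNAs mostly at the transfer RNAs that lie between genes, and all other subunits come from nuclear genes. Dividing progenitors and differentiating oligodendrocytes rely on mitochondria for ATP and for carbon that enters lipid synthesis.

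Reads of several mitochondrial genes cannot be placed uniquely, and this bears on the values that follow. A stretch of chromosome 1 (mm10, minus strand, bases 24611535 to 24616197) holds 7 annotated unprocessed pseudogenes that copy mt-Nd4, mt-Nd4l, mt-Nd3, mt-Co3, mt-Atp6, mt-Co2 and mt-Co1. Over their aligned lengths of 294 to 876 bases, 5 of them match the mitochondrial gene at every base. Gm28438 differs from mt-Nd3 at T3C, and Gm29216 differs from mt-Co1 at A1066T, with the mitochondrial base given before the position counted from the gene's start. The first 90 bases of mt-Nd3 (M:9459-9548, plus strand) and of its copy (chromosome 1, 24613030 to 24613119) are shown because they carry that substitution, which is in capitals. The first 90 bases of mt-Atp6 (M:7927-8016, plus strand) and of its copy (24614562 to 24614651) show a pair with no difference. All are 5′ to 3′ in mm10.
mt-Nd3: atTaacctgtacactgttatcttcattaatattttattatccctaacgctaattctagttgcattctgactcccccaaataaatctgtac
Gm28438: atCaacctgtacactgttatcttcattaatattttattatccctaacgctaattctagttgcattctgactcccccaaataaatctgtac
mt-Atp6: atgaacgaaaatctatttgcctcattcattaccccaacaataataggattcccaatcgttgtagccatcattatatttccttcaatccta
Gm10925: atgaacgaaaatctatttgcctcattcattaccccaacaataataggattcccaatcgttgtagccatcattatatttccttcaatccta

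The deposited counts of these pairs were split in a regular way. The mitochondrial gene held 49.95% to 49.999% of the summed counts of mt-Co3 and Gm28437 in every library, an even division between identical sequences. For mt-Atp6 and Gm10925 the share was 49.93% to 50.02% in all libraries except control replicate 3, where it was 46.0%. For mt-Co2 and Gm28661 it was 44.6% in cKO replicate 3, 48.4% in cKO replicate 4 and 45.2% in control replicate 3, and 49.9% elsewhere. The split was thus even in most libraries but not in all, and so it can move a fold change. mt-Nd3 held 40.5% to 43.5% and mt-Nd4l 55.4% to 59.3% of their pairs' counts, while mt-Co1 and mt-Nd4, whose copies are shorter than the gene, held 99.3% to 99.6% and 99.8% to 99.9%. Each mitochondrial gene is therefore given below as deposited. The value with the chromosome 1 copy's counts added is also given for mt-Nd3, mt-Nd4l, mt-Atp6 and mt-Co2. For mt-Co1, mt-Co3 and mt-Nd4 the log2 fold change with the copy added differed by under 0.01. Genes on other nuclear chromosomes also share runs of 50 bases with mt-Co1, mt-Co2, mt-Nd2, mt-Nd5 and mt-Rnr2. Their aligned parts were 90.4% to 97.6% identical, and their counts were not added.

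**Figure D1:**
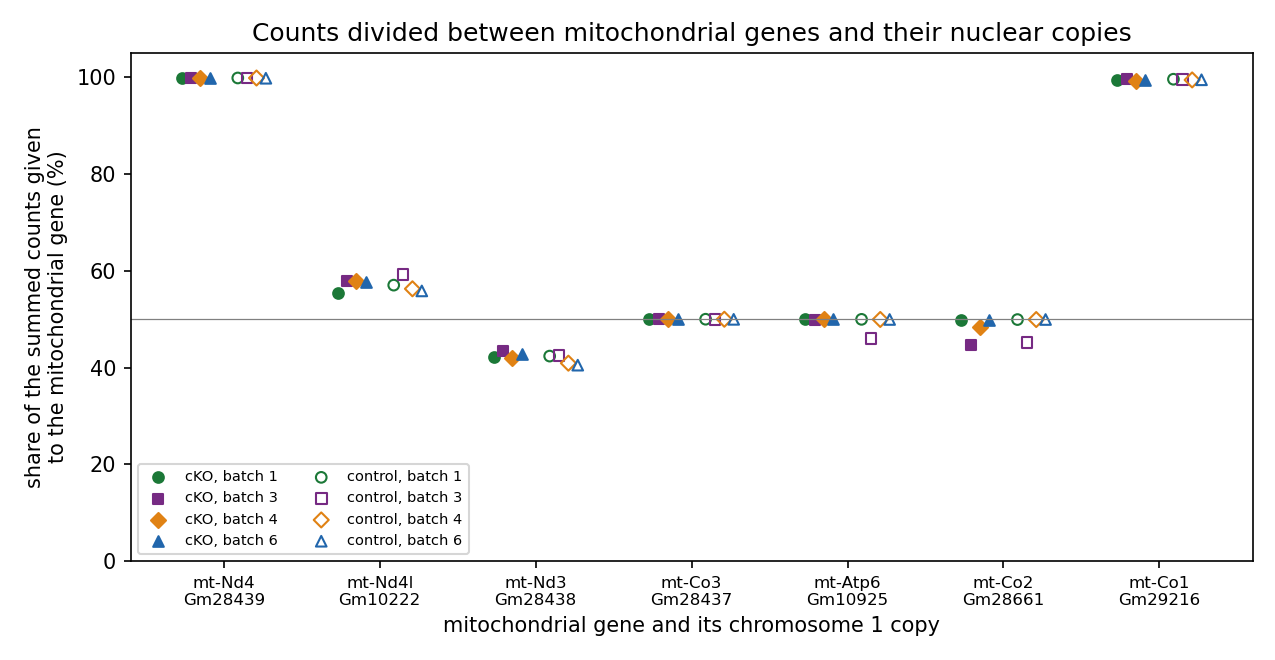
Share of the summed counts of each mitochondrial gene and its chromosome 1 copy that the deposited table gave to the mitochondrial gene, in percent, with filled symbols for the 4 cKO and open symbols for the 4 control libraries. mt-Co3 sits at the 50% line in every library, while mt-Atp6 drops to 46.0% in control replicate 3 and mt-Co2 to 44.6% in cKO replicate 3 and 45.2% in control replicate 3.

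The mRNAs of the mitochondrial genome were higher in cKO cultures. Of 13, 12 passed the edgeR test higher (adjusted p under 0.05 with the batch as a block) and none lower, with log2 fold changes of 0.10 to 0.27 and a median of 0.22. Across all 18102 genes tested, 20.5% passed, 10.0% higher and 10.4% lower, and the median log2 fold change was -0.01. In 11 of the 13 the cKO library exceeded its control in all 4 batches, and the exceptions were mt-Nd2 and mt-Atp8, each in batch 1. The same held for 41 of the 78 nuclear subunit genes tested, and the share among all genes was not counted. The 13 mRNAs come from the same genome and the same libraries, so they are not independent. In a culture of many cells, more cells of a type that is rich in these RNAs cannot be told apart from more RNA per cell. The counts rest on the comparison within batches: 7 of 13 passed without batch 3 and 7 without batch 4, against 9 without batch 6 and 13 without batch 1. mt-Co1, mt-Co3, mt-Nd3, mt-Nd4, mt-Nd5 and mt-Nd6 passed in each of these 4 fits. Without the block none of the 13 passed, at an unadjusted p of 0.05 either, where the smallest p was 0.0928, and 3 of all genes tested did (0.0166%, with 0.00552% higher and 0.0110% lower).

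Complex I receives 7 of these mRNAs, which encode its proton-pumping membrane arm, and all 7 rose. mt-Nd6 (M:13552-14070, minus strand), the mRNA of the 13 that is read from the other strand, had 682, 518, 625 and 716 CPM in cKO libraries 1, 3, 4 and 6, against 613, 427, 492 and 582 CPM in control libraries. Every cKO library lay above the control of its batch, although the groups overlapped. Its log2 fold change was 0.27 ± 0.04 (SE, adjusted p = 0.000629). It overlaps the end of mt-Nd5 on the plus strand, and the mitochondrial genome is read as long transcripts from both strands. The sources used here do not say whether counting used the strand. Reads from the opposite RNA therefore cannot be told apart over the whole of mt-Nd6.

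mt-Nd5 (M:11742-13565, plus strand) had 2788, 2171, 2549 and 2711 CPM in cKO libraries, against 2614, 1838, 2014 and 2238 CPM in control libraries. mt-Nd4 (M:10167-11544) had 2333, 1949, 2360 and 2370 CPM in cKO libraries, against 2215, 1575, 1824 and 2010 CPM in control libraries. For both genes the difference was smallest in batch 1, where the control library was the highest control. Their log2 fold changes were 0.24 ± 0.04 (SE, adjusted p = 0.00252) for mt-Nd5 and 0.25 ± 0.05 (adjusted p = 0.00549) for mt-Nd4. These genes encode the large antiporter-like subunits at the far end of the membrane arm.

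The other complex I mRNAs moved by less or with more spread. mt-Nd1 (M:2751-3707), which borders the quinone site, had 3228, 2493, 2267 and 2440 CPM in cKO libraries, against 3147, 2065, 2064 and 2204 CPM in control libraries, a log2 fold change of 0.15 ± 0.04 (SE, adjusted p = 0.0201). mt-Nd2 (M:3914-4951) had 1974, 1672, 1442 and 1579 CPM in cKO libraries, against 1982, 1465, 1284 and 1450 CPM in control libraries, so batch 1 showed no rise. Its log2 fold change was 0.12 ± 0.04 (SE, adjusted p = 0.0404). mt-Nd3 (M:9459-9806) and mt-Nd4l (M:9877-10173), both small subunits, rose by 0.20 ± 0.04 (adjusted p = 0.00645) and 0.22 ± 0.06 (adjusted p = 0.0359) on the log2 scale. With their chromosome 1 copies added mt-Nd3 rose by 0.16 ± 0.03 (adjusted p = 0.00811) and mt-Nd4l by 0.21 ± 0.05 (adjusted p = 0.0128).

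Complex III takes a single subunit from the mitochondrial genome, cytochrome b. mt-Cytb (M:14145-15288, plus strand) had 6194, 5496, 5330 and 5591 CPM in cKO libraries, against 5955, 4716, 4634 and 5067 CPM in control libraries. Only control library 1 reached into the cKO range. The log2 fold change was 0.16 ± 0.03 (SE, adjusted p = 0.0104).

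Complex IV has its catalytic core from mt-Co1, mt-Co2 and mt-Co3, and all 3 rose. mt-Co1 (M:5328-6872), which holds the oxygen-reducing site, had 10689, 8904, 11415 and 12502 CPM in cKO libraries, against 9478, 6892, 9390 and 10844 CPM in control libraries. Library 3 was the lowest and library 6 the highest of each group, so the groups overlapped while every pair differed in the same direction. The log2 fold change was 0.26 ± 0.04 (SE, adjusted p = 0.00110). mt-Co3 (M:8607-9390) had 1177, 1071, 1192 and 1391 CPM in cKO libraries, against 1042, 832, 962 and 1228 CPM in control libraries, also a log2 fold change of 0.26 ± 0.04 (adjusted p = 0.00112). mt-Co2 (M:7013-7696), the subunit that accepts electrons from cytochrome c, rose by 0.14 ± 0.03 (adjusted p = 0.00946), and by 0.16 ± 0.03 (adjusted p = 0.00798) with its copy added.

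Complex V has the proton-channel subunit of mt-Atp6 and the small mt-Atp8 from the mitochondrial genome. mt-Atp6 (M:7927-8607) had 1625, 1414, 1331 and 1684 CPM in cKO libraries, against 1591, 1074, 1094 and 1413 CPM in control libraries. The log2 fold change of 0.24 ± 0.05 (SE, adjusted p = 0.0181) as deposited became 0.21 ± 0.04 (adjusted p = 0.00840) with the copy's counts added. mt-Atp8 (M:7766-7969), which overlaps mt-Atp6, had 187, 136, 139 and 192 CPM in cKO libraries, against 193, 125, 120 and 178 CPM in control libraries. It was the single mRNA that did not pass, with a log2 fold change of 0.10 ± 0.04 (adjusted p = 0.118). Without batch 1, where its cKO library was the lower of the pair, the value was 0.15 (adjusted p = 0.0314).

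**Figure D2:**
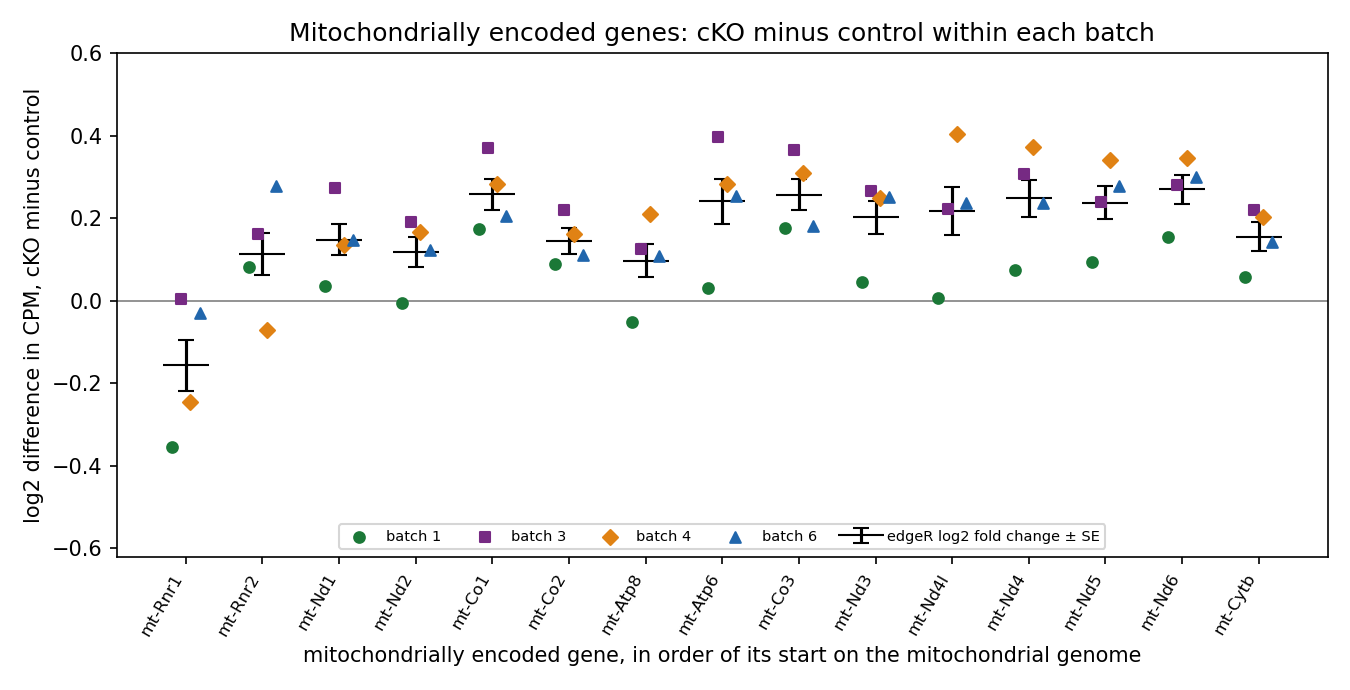
log2 difference in CPM, cKO minus control, within each of the 4 batches (symbols) for the 15 mitochondrial genes tested, in the order of their start on the mitochondrial genome, with the edgeR log2 fold change ± SE in black. All 13 mRNA estimates lie above 0, at 0.10 to 0.27, the batch 1 point is the lowest of the 4 for each mRNA, and mt-Rnr1 lies below 0 at -0.16.

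Neither mitochondrial ribosomal RNA passed the test. mt-Rnr1 (M:70-1024, plus strand), the small-subunit ribosomal RNA, had 325, 444, 315 and 541 CPM in cKO libraries, against 416, 443, 374 and 553 CPM in control libraries, a log2 fold change of -0.16 ± 0.06 (SE, adjusted p = 0.123). mt-Rnr2 (M:1094-2675, plus strand), the large-subunit ribosomal RNA, had 1447, 1271, 783 and 1070 CPM in cKO libraries, against 1366, 1136, 823 and 883 CPM in control libraries, a log2 fold change of 0.11 ± 0.05 (adjusted p = 0.164). mt-Rnr1 was thus the mitochondrial gene with a value below 0, while the estimate of mt-Rnr2 lay within the range of the mRNAs, and it passed without batch 4. The log2 ratio of ribosomal RNA to mRNA counts of the mitochondrial genome averaged -4.35 ± 0.34 in cKO and -4.17 ± 0.26 in control libraries (SD, n = 4 each). It was lower in cKO in 4 of 4 batches, by 0.02 to 0.38. The log2 ratio of mt-Rnr1 to mt-Rnr2 was likewise lower in cKO in all 4 batches, at -1.49 ± 0.49 in cKO and -1.22 ± 0.44 in control libraries, and differed by -0.27 ± 0.13 (mean ± SD of the pair differences). These RNAs carry short adenine tails and the libraries were made by capture on oligo-dT, so the values count the captured fraction. The transfer RNAs mt-Tl1 and mt-Ts1, too short for such libraries, stayed at or below 0.265 CPM and were not tested.

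Per kilobase of transcript, and with the nuclear copies added, the mitochondrial mRNAs spanned a wide range of levels. mt-Co1 was the highest at 7081 ± 988 CPM per kilobase in cKO and 5953 ± 1073 in control libraries (SD, n = 4 each). mt-Cytb (4941 ± 329 and 4452 ± 528), mt-Co2 (4875 ± 433 and 4378 ± 603) and mt-Atp6 (4448 ± 491 and 3869 ± 672) came next, and each differed from its neighbour in this order by less than either SD in both groups. mt-Co3 (3082 ± 341 and 2592 ± 423) and mt-Nd1 (2724 ± 444 and 2476 ± 546) followed, and they differed by less than either SD in control libraries but by more than the SD of mt-Co3 in cKO libraries. The remaining 7 ran from 1637 to 786 CPM per kilobase in cKO and from 1489 to 703 in control libraries, with mt-Nd3 the lowest in both groups. The order of means put complex IV and III core subunits above most complex I subunits, and ribosomal RNA, at 722 and 425 CPM per kilobase in cKO for mt-Rnr2 and mt-Rnr1, below every mRNA. However, mt-Rnr2 (722 ± 180 in cKO and 665 ± 158 in control) differed from mt-Nd3 (786 ± 81 and 703 ± 100) by less than either SD in both groups. Nuclear subunit genes stood far lower, with a median of 75.6 CPM per kilobase in cKO and 73.3 in control libraries over 78 genes with a length. The highest of them, Atp5b of the catalytic head of complex V, reached 558 CPM per kilobase in cKO and 592 in control libraries.

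The nuclear subunit genes moved less and in both directions. Of 81, 78 were tested and 3 (Cox4i2, Cox6a2 and Cox8b) were at or near 0. In the same fit 19 rose (24.4%, against 10.0% of all genes tested), 3 fell (3.85%, against 10.4%) and 56 did not pass. The median log2 fold change was 0.07, with 62 values above 0 and 16 below, against -0.01 for all genes. Without batch 1, 3, 4 or 6 the number that rose was 11, 5, 7 or 27, and the number that fell was 1, 1, 1 or 3. DESeq2 with the same block found 12 higher and 3 lower, and without the block no nuclear subunit passed in edgeR, with 5 of 78 at an unadjusted p under 0.05 against 4.93% of all genes. Ndufs4, Ndufs6, Cox7a2, Atp5e and Atp5j2 rose and Ndufv3 fell whichever batch was left out.

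The nuclear part of complex I consists of the redox core of the matrix arm and a shell of accessory subunits. Of its 36 genes 10 rose (27.8%) and 2 fell (5.56%), against 10.0% and 10.4% of all genes tested. Ndufs4 (chromosome 13, 114287795 to 114388258, minus strand), an accessory subunit of the electron-input module whose loss in mice causes a Leigh-like encephalopathy, had 62.5, 66.5, 50.4 and 57.2 CPM in cKO libraries, against 52.6, 52.2, 44.0 and 50.2 CPM in control libraries. Every pair differed in the same direction, by 0.19 to 0.35 on the log2 scale, and the log2 fold change was 0.25 ± 0.04 (SE, adjusted p = 0.00178). Ndufs6 (chromosome 13, 73319838 to 73328542, minus strand), a zinc-binding subunit of the same module, had 35.9, 34.3, 28.7 and 32.9 CPM in cKO libraries, against 32.2, 29.1, 23.4 and 27.6 CPM in control libraries. Its log2 fold change was 0.23 ± 0.04 (adjusted p = 0.00372).

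The other 8 complex I genes that rose did so by 0.11 to 0.19 on the log2 scale. They were Ndufa1 (0.19 ± 0.06 SE), Ndufb3 (0.17 ± 0.04), Ndufa2 (0.17 ± 0.04), Ndufa4 (0.15 ± 0.04), Ndufa5 (0.14 ± 0.04), Ndufc1 (0.14 ± 0.04), Ndufv2 (0.13 ± 0.04) and Ndufb7 (0.11 ± 0.03), with edgeR adjusted p of 0.0151 to 0.0484. Ndufv2 is a core subunit that holds an iron-sulphur cluster, and the others are small accessory subunits. The NDUFA4 protein, though named for complex I, has been reassigned to complex IV. Its gene is kept under complex I here, by symbol, in the counts and in the ratios. Ndufa2 had 45.0 to 52.2 CPM in cKO and 39.6 to 44.3 CPM in control libraries and was the gene of these 8 with no overlap between groups.

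The 2 complex I genes that fell both belong to the electron-input module. Ndufv3 (chromosome 17, 31520115 to 31531331, plus strand), a small accessory subunit, had 54.2, 39.7, 66.7 and 57.2 CPM in cKO libraries, against 60.8, 47.0, 76.2 and 74.1 CPM in control libraries. The cKO library was the lower of every pair, with a log2 fold change of -0.24 ± 0.04 (SE, adjusted p = 0.00245). Ndufv1 (chromosome 19, 4007384 to 4012806, minus strand), the core subunit that binds NADH and flavin, had 92.9, 81.1, 77.8 and 80.5 CPM in cKO libraries, against 102, 89.8, 84.4 and 87.1 CPM in control libraries. Its log2 fold change was -0.13 ± 0.03 (adjusted p = 0.0130). Thus Ndufv1 and its neighbour in the module Ndufv2 changed in opposite directions, but both calls were lost without batch 1, 3 or 4. Of the core subunits that did not pass, Ndufs3 had a log2 fold change of -0.03, Ndufs1 of 0.02, Ndufs7 of 0.03 and Ndufs8 of 0.02.

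Complex II, the succinate dehydrogenase that also serves the citric acid cycle, has 4 subunits, all nuclear. Sdha (chromosome 13, 74322254 to 74350280, minus strand), the flavoprotein that oxidises succinate, had 289, 248, 241 and 265 CPM in cKO libraries, against 324, 269, 254 and 276 CPM in control libraries. It fell by 0.10 ± 0.03 (SE, adjusted p = 0.0326) on the log2 scale, a call that was lost without batch 1, 3 or 4 and with upper-quartile scaling. The iron-sulphur subunit Sdhb (0.07 ± 0.03, adjusted p = 0.159) and the membrane anchors Sdhc (-0.07 ± 0.03, adjusted p = 0.118) and Sdhd (0.08 ± 0.03, adjusted p = 0.105) did not pass. Each of these 3 differed in the same direction in all 4 pairs.

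In complex III, Uqcrc2 (chromosome 7, 120635176 to 120659524, plus strand), a core subunit of the matrix side, had 149, 135, 138 and 147 CPM in cKO libraries, against 140, 121, 126 and 144 CPM in control libraries. It was the 1 gene of 8 that rose (12.5%, against 10.0% of all genes tested). Its rise of 0.10 ± 0.03 (SE, edgeR adjusted p = 0.0476) did not pass without batch 1, 3 or 4, with RLE scaling or in DESeq2. Its partner core subunit Uqcrc1 had a log2 fold change of -0.05 ± 0.03 (adjusted p = 0.228). The small subunits Uqcrb (0.15 ± 0.05, adjusted p = 0.0514), Uqcr10 (0.10 ± 0.03, adjusted p = 0.0547) and Uqcrh (0.10 ± 0.03, adjusted p = 0.0605) narrowly did not pass. The cKO library was the higher of all 4 pairs for each of these 3.

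For complex IV, 3 of the 13 nuclear genes tested rose (23.1%, against 10.0% of all genes tested) and none fell (against 10.4%). Cox7a2 (chromosome 9, 79755361 to 79759878, minus strand), the widely expressed form of subunit VIIa, had 104, 96.6, 82.1 and 79.0 CPM in cKO libraries, against 90.3, 76.9, 72.2 and 73.5 CPM in control libraries. The rise was 0.21 ± 0.04 (SE, adjusted p = 0.00453). The small membrane subunits Cox7b (0.15 ± 0.04, adjusted p = 0.0148) and Cox6c (0.12 ± 0.03, adjusted p = 0.0314) also rose, and Cox8a (0.10 ± 0.04, adjusted p = 0.0678) did not pass.

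Several complex IV subunits have tissue-specific forms, and these cultures held the widely expressed ones. Cox4i1 averaged 250 ± 15.8 CPM in cKO and 245 ± 23.8 CPM in control libraries (SD, n = 4 each), while Cox4i2, its lung-enriched relative, was at most 0.129 CPM in cKO and 0.227 CPM in control libraries. Cox6a1 averaged 178 CPM in cKO and 171 CPM in control libraries, while the muscle form Cox6a2 was at most 0.0352 CPM in cKO and 0.0757 CPM in control libraries. The muscle form Cox7a1 stayed at or below 0.317 CPM in cKO and 0.511 CPM in control libraries, and the muscle form Cox8b at or below 0.0705 and 0.0784 CPM. Cox6b1, with 175 CPM in cKO and 167 CPM in control libraries, was accompanied by the testis form Cox6b2 at 10.4, 3.06, 2.93 and 4.003 CPM in cKO libraries, against 11.0, 3.07, 2.49 and 4.01 CPM in control libraries. Batch 1 thus held the highest Cox6b2 of both groups. The log2 fold changes of Cox4i1 (0.03), Cox6a1 (0.06), Cox6b1 (0.07), Cox6b2 (0.02), Cox7a1 (-0.28 ± 0.42 SE) and Cox7a2l (0.07) did not pass.

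In complex V, 5 of 17 nuclear genes rose (29.4%, against 10.0% of all genes tested) and none fell (against 10.4%). Atp5e (chromosome 2, 174461072 to 174464105, minus strand), the epsilon subunit of the central stalk, had 80.2, 81.5, 76.4 and 79.5 CPM in cKO libraries, against 67.1, 68.1, 69.8 and 70.4 CPM in control libraries. Its groups did not overlap, and the log2 fold change was 0.21 ± 0.03 (SE, adjusted p = 0.00270). Atp5j2 (chromosome 5, 145183698 to 145192062, minus strand), a membrane subunit, had 113, 118, 102 and 102 CPM in cKO libraries, against 100, 97.0, 92.2 and 93.7 CPM in control libraries. It rose by 0.18 ± 0.03 (adjusted p = 0.00500), again without overlap. The membrane subunit Atp5md (0.18 ± 0.04, adjusted p = 0.0127), the small proteolipid Atp5mpl (0.16 ± 0.04, adjusted p = 0.0168) and the side-stalk subunit Atp5pb (0.14 ± 0.03, adjusted p = 0.0138) rose as well.

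The abundant catalytic subunits of complex V had values below 0. Atp5b had 1224, 1025, 1012 and 1019 CPM in cKO libraries, against 1327, 1084, 1083 and 1040 CPM in control libraries, and Atp5a1 had 889, 821, 744 and 858 CPM in cKO libraries, against 960, 862, 784 and 883 CPM in control libraries. Both were lower in all 4 pairs, but neither passed, with log2 fold changes of -0.08 and -0.07. The c-ring subunit is made from 3 genes, of which Atp5g3 (164 ± 22.2 CPM in cKO and 168 ± 27.4 CPM in control libraries, SD, n = 4 each) exceeded Atp5g1 (29.2 and 30.4 CPM) and Atp5g2 (1.89 and 1.54 CPM) per kilobase as well, at 227 CPM per kilobase in cKO against 5.94 and 2.58. None of the 3 passed, and Atp5g2, with the largest estimate, had 0.30 ± 0.16 (SE, adjusted p = 0.215).

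Of the 10 pseudogene rows, 8 were tested and Atp5pb-ps passed, with a rise of 0.15 ± 0.04 (SE, adjusted p = 0.0247). Its estimate lay beside that of its parent gene Atp5pb, and counts shared between such copies cannot be told apart, so it is uncertain. Cox6c2, Cox5b-ps and Atp5k-ps2, at 5.51 to 21.7 CPM in cKO libraries, did not pass.

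**Figure D3:**
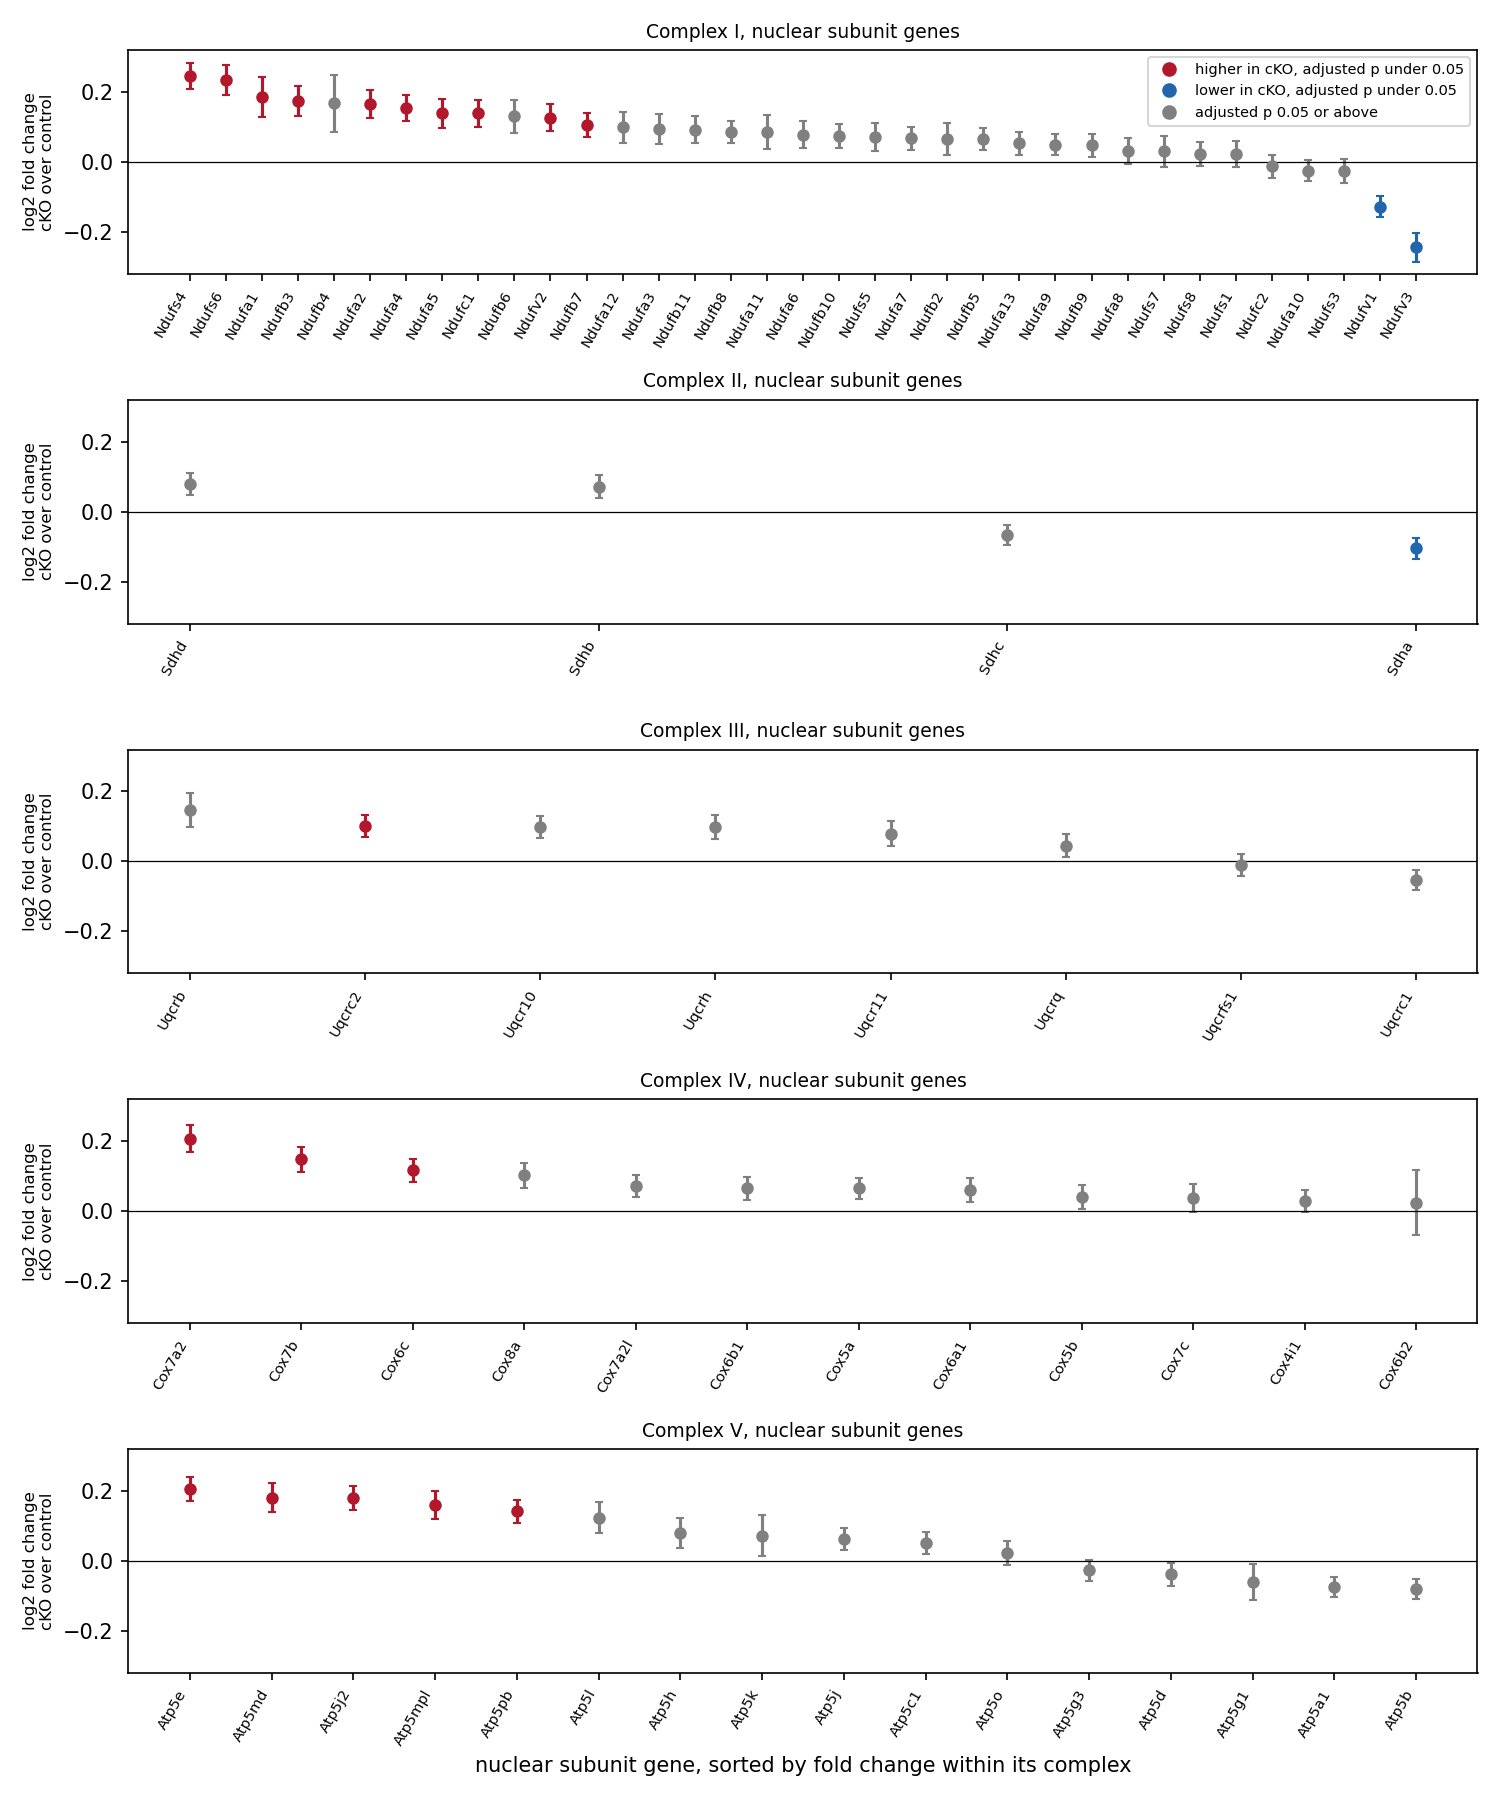
edgeR log2 fold change of cKO over control ± SE for the nuclear subunit genes of complexes I to V, sorted within each complex, with red for genes that rose, blue for genes that fell and grey for genes that did not pass; Cox7a1 and Atp5g2, below 2.1 CPM in every library, are among the genes not drawn. Points lie between -0.24 (Ndufv3) and 0.25 (Ndufs4), and the red genes are 10 of complex I, 1 of complex III, 3 of complex IV and 5 of complex V.

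The balance of mitochondrial to nuclear subunit mRNA was compared within each library, where library scaling cancels. The summed counts of the 13 mitochondrial mRNAs over those of the 81 nuclear subunit genes gave ratios of 3.58, 3.29, 3.77 and 3.97 in cKO libraries 1, 3, 4 and 6, against 3.35, 2.82, 3.20 and 3.49 in control libraries. The ratio was higher in cKO in every batch although the groups overlapped. On the log2 scale it averaged 1.87 ± 0.11 in cKO and 1.68 ± 0.13 in control libraries (SD, n = 4 each), and the pair differences were 0.10, 0.22, 0.23 and 0.19, with a mean of 0.19 ± 0.06 (SD). As the members were chosen with results of these data known, no p is given for this sum. It is weighted towards abundant genes, and the difference of mean log2 CPM, which weights genes equally, was 0.13 ± 0.08.

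Within each complex the log2 ratio of mitochondrial to nuclear counts was higher in cKO in 4 of 4 batches. The mean difference was 0.14 ± 0.09 for complex I, 0.10 ± 0.07 for complex III, 0.16 ± 0.05 for complex IV and 0.24 ± 0.12 for complex V (SD of the 4 pair differences). Batch 1 gave the smallest difference in each, at 0.02, 0.01, 0.09 and 0.07. These ratios used the counts as deposited, without the chromosome 1 copies. The largest complex V difference, 0.35, came from batch 3, where mt-Atp6 held 46.0% of its pair's counts in the control and 49.9% in the cKO library. Within the mitochondrial genome the mRNAs did not move by the same amount, since the log2 ratio of mt-Co1 to mt-Nd1 was 2.06 ± 0.33 in cKO and 1.95 ± 0.34 in control libraries (SD, n = 4 each) and exceeded its control in 4 of 4 batches, by 0.06 to 0.15.

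**Figure D4:**
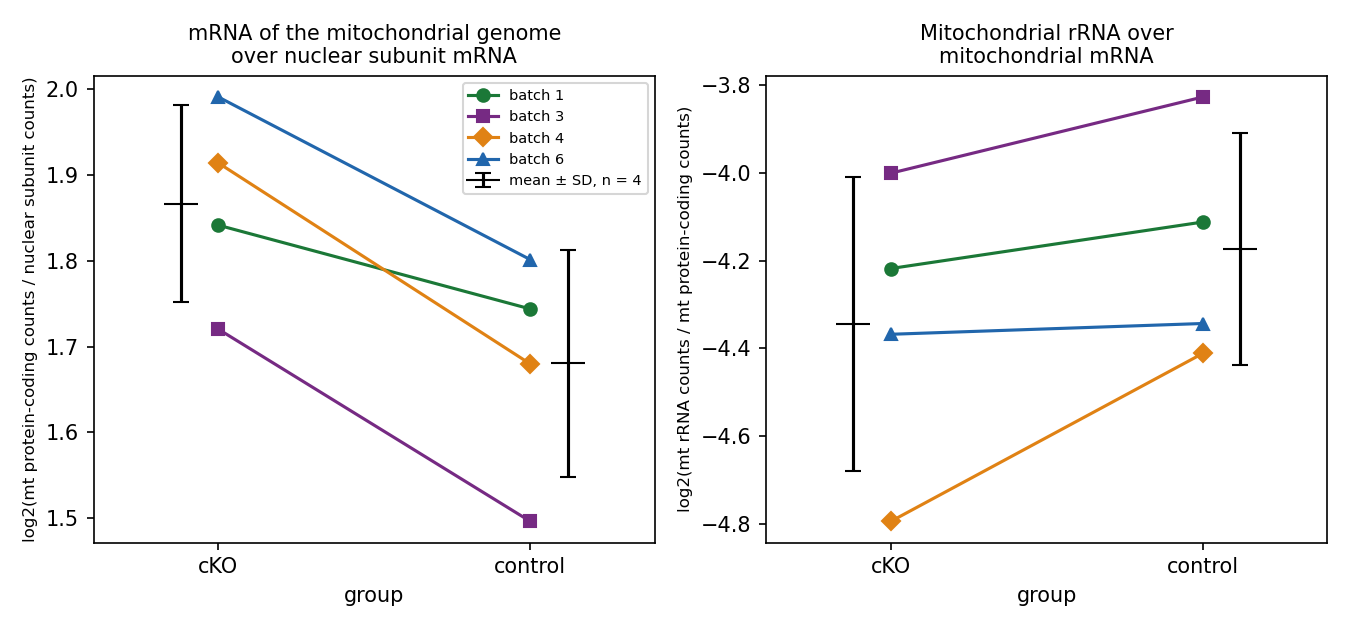
Left, log2 ratio of mitochondrial mRNA counts to nuclear subunit counts in each library, and right, log2 ratio of mitochondrial ribosomal RNA to mitochondrial mRNA counts; lines join the cKO and control library of a batch, and bars give the mean ± SD of 4 libraries. The left ratio is higher in cKO in each batch (mean 1.87 in cKO, 1.68 in control) and the right ratio lower (mean -4.35 in cKO, -4.17 in control).

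Other features of the libraries moved with the same groups. Mitochondrial mRNAs took 3.15% ± 0.27 of all counts in cKO and 2.65% ± 0.36 in control libraries (SD, n = 4 each), and nuclear subunit genes 0.864% ± 0.067 and 0.822% ± 0.064. A cytosolic ribosomal RNA gene, CT010467.1, took 7.67% ± 1.05 in cKO and 9.18% ± 0.95 in control libraries and was lower in cKO in all 4 batches. With library totals counted without that gene and without the mitochondrial genes, 12 mitochondrial mRNAs again rose, with 21 nuclear subunits higher and 3 lower. For the marker counts that follow, 10.0% of all genes tested passed higher and 10.4% lower. Markers of mature oligodendrocytes passed higher for 7 of 8 tested genes and lower for none. Their summed levels were 130 to 1435 CPM in cKO and 57.0 to 685 CPM in control libraries, while Opalin, Aspa and Ermn were under 1 CPM. Astrocyte markers summed to 254 to 862 CPM in cKO and 150 to 768 CPM in control libraries, with 2 higher and 1 lower of 5 tested and Gjb6 under 1 CPM. Neuron markers summed to 48.9 to 75.2 CPM in cKO and 27.2 to 67.6 CPM in control libraries, with 3 higher of 6 tested and Stmn2 and Slc17a7 under 1 CPM. The part of these features in the respiratory chain values was not tested.

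Batches differed by as much as the groups or more. The SD of log2 CPM between the 4 control libraries had a median of 0.24 over the 13 mitochondrial mRNAs and of 0.12 over the 76 nuclear subunit genes at 5 CPM or more. Differences within pairs varied less, with a median SD of 0.10 and 0.06. Control library 1 was the highest control for 11 of the 13 mitochondrial mRNAs, while cKO library 1 was the highest cKO library for 4. For the nuclear genes library 1 was the highest of its group for 52 of 76 in cKO and for 51 of 76 in control libraries.

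Many respiratory chain mRNAs are short, and short transcripts of other kinds also tended to be higher in cKO. Among 384 other genes with a mean of 20 to 2000 CPM and under 1000 exonic bases, 27.9% rose and 1.56% fell, with a median log2 fold change of 0.08, against 8.86% and 19.1% and a median of -0.03 among 7462 longer genes. Nuclear subunit genes under 1000 bases numbered 39, of which 10 (25.6%) rose and none fell, with a median of 0.09, a share close to that of the other short genes. Among the 36 longer subunit genes 7 (19.4%) rose and 3 (8.33%) fell, with a median of 0.05. All 3 that fell, Ndufv3, Ndufv1 and Sdha, had 1774 to 2900 exonic bases. Across the 75 nuclear subunit genes with a length, Spearman's rho between length and log2 fold change was -0.47, and across 7927 genes at 20 to 2000 CPM it was -0.15; genes of the same 8 libraries are not independent, so these are descriptions.

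Set against the median of other genes of their length class, the mitochondrial mRNAs lay 0.13 higher in the median, and 12 of 13 exceeded the upper quartile of their class. Those other genes had a mean of 20 to 2000 CPM, a range that mt-Co1, mt-Cytb, mt-Nd1, mt-Nd4 and mt-Nd5 exceed, so these are not matched by level. Nuclear subunit genes lay 0.02 higher in the median, with 24 of 75 above the upper quartile and 7 below the lower quartile. The 5 mitochondrial mRNAs of 1000 bases or more all rose, with a median of 0.24, and of the 8 shorter ones 87.5% rose, with a median of 0.21. Whether transcript length itself plays a part in the nuclear or the mitochondrial values was not tested.

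**Figure D5:**
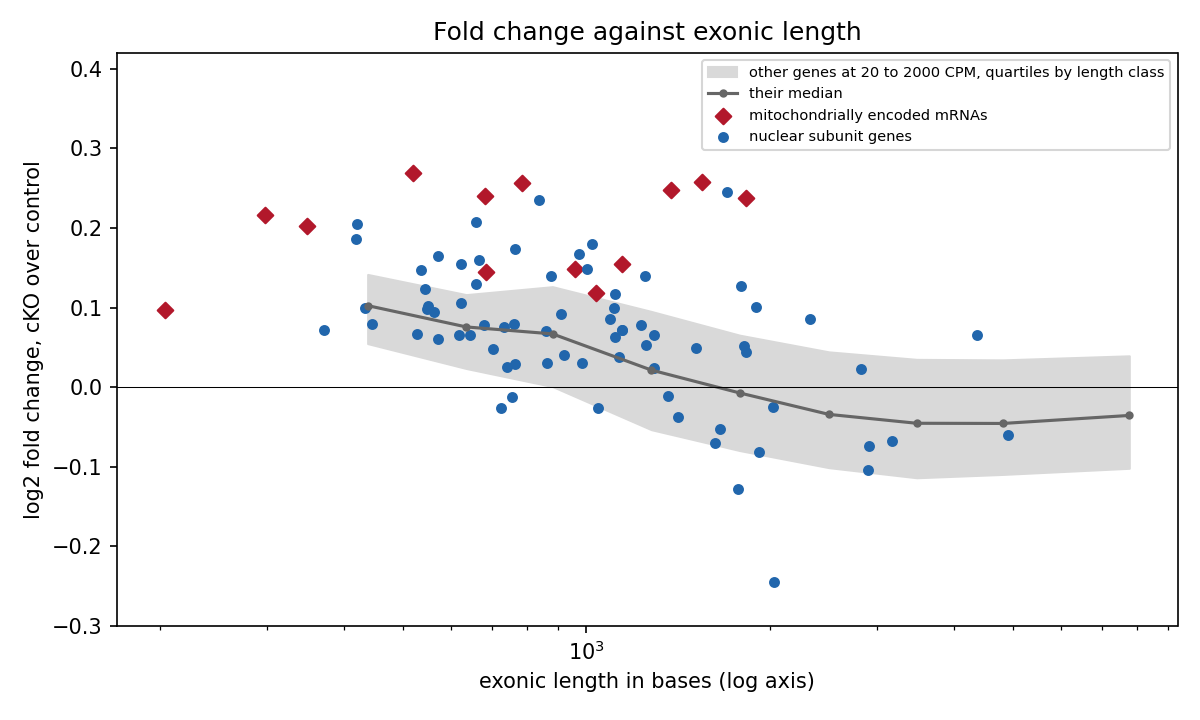
edgeR log2 fold change of cKO over control against exonic length in bases (log axis) for mitochondrial mRNAs (red diamonds) and nuclear subunit genes (blue circles), with the median and quartiles of other genes at 20 to 2000 CPM by length class in grey. The grey median is 0.10 in the shortest class and below 0 in the longest, most blue points lie near it, and 12 of 13 red diamonds lie above the upper quartile.

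Nuclear subunit promoters are known to carry sites for NRF1 (nuclear respiratory factor 1), ETS factors such as GABPA, and YY1. Promoters (250 bases before to 50 after the start, RefSeq, GRCm38.p6) were found for 67 of the 81 subunit genes, with 72 promoters in all, and were searched on both strands. The NRF1 core, its palindrome with 1 of the middle bases free, was in 18 of these 72 promoters and in 4.59% of all 32817 promoters of that length. The strict NRF1 palindrome, which the core includes, was in 6.9% of the subunit promoters against 0.97% of all. The YY1 letters AAGATGGCG were in 9.7% of subunit promoters against 1.4% of all, and the ETS letters CCGGAAGT in 6.9% against 3.89%. The 17 genes with the NRF1 core included 2 that rose and 1 that fell, with a median log2 fold change of 0.07, against 13 higher and 2 lower and a median of 0.07 among the 49 genes without it. Of the 7 genes with the YY1 letters 4 rose and none fell, with a median of 0.14, against 11 higher and 3 lower and a median of 0.07 among 59 without. Given these small numbers and no test, the counts are descriptions.

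The promoters of 3 genes described above are shown as examples of the motifs: Ndufs4 and Ndufs6, the nuclear subunits with the largest called rises, and Sdha, the smallest of the 3 falls. Capitals mark the NRF1 core in Sdha and Ndufs6 and the YY1 letters in Ndufs6 and Ndufs4. Each is 5′ to 3′ on the gene's strand, which is minus for all 3 (GRCm38.p6, the same build as mm10). Ndufs4 lies at chr13:114388045-114388344, Ndufs6 at chr13:73328433-73328732 and Sdha at chr13:74350191-74350490.
Ndufs4: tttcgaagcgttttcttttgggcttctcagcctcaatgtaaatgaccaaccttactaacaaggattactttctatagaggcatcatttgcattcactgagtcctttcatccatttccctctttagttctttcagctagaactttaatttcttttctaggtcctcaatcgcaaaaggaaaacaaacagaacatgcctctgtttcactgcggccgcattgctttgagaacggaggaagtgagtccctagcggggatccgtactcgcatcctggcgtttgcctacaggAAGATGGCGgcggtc
Ndufs6: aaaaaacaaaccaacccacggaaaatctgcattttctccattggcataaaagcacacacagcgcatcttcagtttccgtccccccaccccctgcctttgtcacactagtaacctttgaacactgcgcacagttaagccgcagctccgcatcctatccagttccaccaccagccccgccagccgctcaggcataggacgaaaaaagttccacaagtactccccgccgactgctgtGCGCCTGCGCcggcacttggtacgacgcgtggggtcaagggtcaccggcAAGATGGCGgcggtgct
Sdha: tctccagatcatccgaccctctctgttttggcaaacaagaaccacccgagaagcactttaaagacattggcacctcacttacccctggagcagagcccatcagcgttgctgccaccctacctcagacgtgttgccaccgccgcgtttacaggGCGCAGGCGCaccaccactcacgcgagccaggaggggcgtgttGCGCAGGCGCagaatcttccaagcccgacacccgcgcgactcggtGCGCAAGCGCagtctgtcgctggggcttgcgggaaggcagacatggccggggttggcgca
Ndufs4 holds the YY1 letters, Ndufs6 the YY1 letters and the NRF1 core, and Sdha the NRF1 core 3 times. The promoters of Ndufv3 and Ndufv1, which fell by more, and of Atp5e and Cox7a2, which rose, hold none of the motifs, and Ndufa9, Ndufs7 and Atp5j hold the YY1 letters and did not pass.

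Genes that maintain and read the mitochondrial genome changed in both directions. Of all genes tested, 10.0% rose and 10.4% fell. Of 16 genes of mitochondrial DNA replication and transcription 2 rose (12.5%) and 2 fell (12.5%), close to those shares, with a median log2 fold change of 0.04. Polg, the mitochondrial DNA polymerase, fell by 0.27 ± 0.06 (SE, adjusted p = 0.0136). Top1mt, the mitochondrial topoisomerase, and Tfb1m, a methyltransferase of the small ribosomal RNA, rose by 0.50 ± 0.13 (adjusted p = 0.0219) and 0.28 ± 0.08 (adjusted p = 0.0373). The RNA polymerase gene Polrmt, the other that fell, had -0.18 ± 0.06 (adjusted p = 0.0498), and the transcription factor Tfam -0.02 ± 0.04 (adjusted p = 0.701); both were picked out after their values were seen. Among 21 genes of mitochondrial RNA processing and decay 1 rose (4.76%) and 3 fell (14.3%). Slirp, which stabilises mitochondrial mRNAs together with Lrpprc, rose by 0.23 ± 0.04 (adjusted p = 0.00429), while Tbrg4 (-0.17) and the helicase gene Dhx30 (-0.10) fell. Of 78 mitochondrial ribosomal protein genes 8 rose (10.3%) and 3 fell (3.85%), with a median of 0.04. Mrps28 (0.25), Mrpl48 (0.20) and Mrpl30 (0.16) were the 3 with the smallest p.

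Assembly factors and electron carriers passed at shares close to or below those of all genes tested, 10.0% higher and 10.4% lower. For complex I assembly, 2 of 16 genes rose (12.5%), Ndufaf2 (0.22) and Ndufaf4 (0.17). Ndufaf3 was the 1 that fell (6.25%), by 0.36 ± 0.08 (SE, adjusted p = 0.0119). For complexes II to V, 2 of 33 rose (6.06%) and 2 fell (6.06%). Among them were the complex IV factors Cox20 (0.31 ± 0.06, adjusted p = 0.00822), Cox10 (-0.17), needed for haem a synthesis, and the copper chaperone Sco1 (-0.20). Of 18 electron carrier genes 1 rose (5.56%), Coq3 of ubiquinone synthesis, by 0.28, and none fell. Cytochrome c (Cycs, 0.16, adjusted p = 0.0702) and cytochrome c1 (Cyc1, -0.06) did not pass.

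Genes that fell outnumbered those that rose among regulators and fuel pathways, as they did among all genes at a mean of 20 to 2000 CPM. In that set 10.0% rose and 18.1% fell, with a median of -0.03. Of all genes tested 10.0% rose and 10.4% fell, with a median of -0.01. Apart from glycolysis and lactate, the shares of these lists that fell lay near 18.1%. Of 12 biogenesis regulators none rose and 2 fell (16.7%), with a median of -0.09: Pprc1, a coactivator of the PGC-1 family, fell by 0.18 ± 0.04 (SE, adjusted p = 0.0105) and Nrf1 by 0.13 ± 0.04 (adjusted p = 0.0311), while Yy1 (-0.10, adjusted p = 0.0605) did not pass. In the citric acid cycle none of 14 genes rose and 2 fell (14.3%), with a median of -0.01; citrate synthase Cs fell by 0.16 ± 0.03 (adjusted p = 0.00438), and Suclg2 (0.12, adjusted p = 0.0504) did not pass. Of 21 glycolysis and lactate genes 1 rose and 6 fell (28.6%), with a median of -0.06, led by Hk2 (-0.45 ± 0.06), Aldoa (-0.15 ± 0.03) and Pfkm (-0.15 ± 0.03). Among 24 genes of import, membrane and dynamics 1 rose (Vdac2, an outer membrane channel, 0.15) and 5 fell (20.8%), including the import subunit Timm50 (-0.30 ± 0.04, adjusted p = 0.000736) and the chaperone Hspa9 (-0.12). Of 10 mitophagy genes 1 rose (10%) and 2 fell (20%): Fundc1 (0.27), an outer membrane receptor, rose, and the adaptors Optn (-0.25) and Sqstm1 (-0.11) fell.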

How the data were processed

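RNA-seq of 8 libraries was used. Per the labels' protocols, mRNA was captured on oligo-dT beads and primed with random hexamers after fragmentation, and RNA below an integrity number of 8 was not used. Per the submitters' processing notes, cutadapt, STAR, Partek and DESeq2 were used with mm10; no version, annotation or strand setting of the counting was given. The authors deposited expected counts per gene, not normalized, of which 51.6% are not whole. They were rounded here. Totals were 43542742 to 65374488 per library, and how much of the spread between libraries comes from counting was not tested.

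Genes were kept with filterByExpr (minimum count 10), scaled by TMM and tested with edgeR 4.0.16 in R 4.3.3 (glmQLFit robust, glmQLFTest, 2-sided) with batch as a block, Benjamini-Hochberg over 18102 genes and a threshold of 0.05. SE is the log2 fold change over the root of F. The block follows the batch names in the labels; as a check, the 2 libraries of batch 1, 3, 4 and 6 deviated from their group means with correlations of 0.787, 0.791, 0.761 and 0.750, and any other pair across groups with at most 0.394. Members and lists were chosen with earlier results of these data known. Named were all mitochondrial mRNAs and rRNAs, nuclear subunits past the threshold or with the 4 smallest p of a complex, low or paralogous members, and up to 3 genes per pathway list with the smallest p; other members named are examples picked after their values were seen, and some genes are not reported here. Alternatives were other scalings and filters, DESeq2 1.42.0, limma-voom 3.58.1, no block, each batch left out, and, added after seeing the data, nuclear copies added to mitochondrial genes. Lengths are exonic bases of GENCODE M21, whose start and end matched for 102 of 108 members. Fitting was tested on simulated data.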

Additional observations from a re-analysis of the deposited data

Results flagged for a closer look

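In each group of 4 libraries the gap from the most extreme library to its nearest neighbour was divided by the range of the group, and 11 of 174 groups had a value above Dixon's 95% critical value. Chance alone would pass about 1 in 20 groups. Among mitochondrial mRNAs, mt-Nd3 in cKO replicate 4 (97.6 CPM, nearest 121 CPM) gave 0.889, mt-Nd4 in cKO replicate 3 (1949 CPM, nearest 2333 CPM) gave 0.912 and mt-Nd1 in control replicate 1 (3147 CPM, nearest 2204 CPM) gave 0.871.

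Among nuclear subunits, replicate 1 was the highest library in each case. Cox6b2 in cKO (10.4 CPM, nearest 4.003 CPM) gave 0.856. Atp5g3 gave 0.909 in cKO (197 CPM, nearest 156 CPM) and 0.931 in control libraries (209 CPM, nearest 156 CPM). Uqcr10 in control libraries (74.6 CPM, nearest 56.6 CPM) gave 0.905, and Cox8a in control libraries (176 CPM, nearest 136 CPM) gave 0.922.

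Of the other mitochondrial genes named, Timm50 in cKO libraries (58.1 CPM, nearest 49.5 CPM) gave 0.992, Pprc1 in cKO libraries (31.3 CPM, nearest 49.0 CPM) gave 0.834 and Top1mt in control libraries (2.59 CPM, nearest 1.55 CPM) gave 0.905.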

How the results depend on the processing

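Without the replicate block 3 genes passed in place of 3706, with 0 mitochondrial mRNAs, 0 nuclear subunits higher and 0 lower, so every member call rests on pairing by batch. Leaving out each batch in turn gave 2102 to 3432 genes in all, 7 to 13 mitochondrial mRNAs higher, 5 to 27 nuclear subunits higher and 1 to 3 lower, and such fits have fewer libraries. DESeq2 with the block called 12 nuclear subunits higher in place of 19. RLE and upper-quartile scaling, library totals without mitochondrial genes and CT010467.1, testing every gene, keeping genes at 1 CPM in at least 4 libraries, limma-voom and added nuclear copies each left 12 mitochondrial mRNAs higher, 17 to 24 nuclear subunits higher and 2 to 4 lower. The log2 ratio of mitochondrial to nuclear counts differed by 0.13 to 0.22 over its alternatives. Among single genes, Cox7a1 ran from -0.66 to 0.16 on the log2 scale over the left-out batches and changed sign without batch 6. Cox6b2 ran from -0.0209 to 0.0707 and changed sign without batch 4, without the block (-0.00538) and in limma-voom (-0.00168). The cause was not tested. Depth limits Cox7a1 and the 3 subunits near 0, which were under 1 CPM.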
